A study of Mus musculus with 9 samples.

Results

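The genes for the proteins of the mitochondrial ribosome were followed on 9 expression arrays. The cells were SCCVII, an established mouse line that goes back to an oral squamous cell carcinoma, with the strain written as CH3 in the labels. A gene was included when its platform symbol was Mrps or Mrpl followed by a number, and it was represented by whichever of its single-gene probe sets had the highest mean over the arrays. This gave 76 of the 18194 genes tested, 29 with Mrps and 47 with Mrpl names, which were covered by 156 of the 34944 single-gene probe sets. Mrpl30 and Mrpl53 lay only on probe sets annotated to several genes and were not included.

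Each of the 3 groups had 3 arrays. The parental group (PA) was SCCVII kept in standard culture. The group named non-irradiated (NIR) was grown out of tumours arising where PA cells were injected into stroma without irradiation, and the labels call these tumours and lines poorly invasive and metastatic. The group named irradiated (IR) was grown out of tumours formed in stroma that had been irradiated before the injection, and its cells are described as keeping their invasive and metastatic capacity in normoxic culture. All groups therefore share 1 starting line, and both derived groups have passed through a mouse while PA has not. The design text calls the samples independent, but no label ties an array to its own tumour or culture, and the spread behind the p-values could therefore be technical alone. IR against NIR addresses what the irradiated stroma adds to passage, NIR against PA addresses passage through a tumour itself, and IR against PA holds passage and irradiated stroma together.

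Mitochondria keep a small genome of their own, and the few proteins it encodes are core subunits of the respiratory chain and of ATP synthase. They are made inside the organelle on a dedicated ribosome, whose RNAs come from mitochondrial DNA while all of its proteins come from nuclear genes and are imported. Many of these proteins have a counterpart in bacterial ribosomes, and the others were added during the evolution of mitochondria. Of the 76 genes, 16 encode small subunit proteins with a bacterial counterpart, 10 small subunit proteins specific to mitochondria, 29 large subunit proteins with a bacterial counterpart and 20 large subunit proteins specific to mitochondria. The last class holds Mrps30 and Mrps18a, whose products sit in the large subunit despite their names. The remaining gene, Mrps36, carries a ribosomal name, but its product belongs to the 2-oxoglutarate dehydrogenase complex.

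The values are log2 signals from RMA, a method that corrects, normalises and summarises the probes of a probe set, so a difference of 1 is a 2-fold change of signal. The array medians over all probe sets ranged from 4.45 to 4.52. The 76 genes had mean signals from 7.35 to 11.6 with a median of 9.59, and every one of them passed a filter on dim genes. The dimmest probe sets were those of Mrps27, Mrps5 and Mrpl1, and the brightest those of Mrpl13, Mrpl51 and Mrpl12, an order that reflects the probes as well as the transcripts. The squamous and epithelial markers were mixed. Krt8 and Krt18, keratins of simple epithelium, had signals between 11.2 and 12.9 on every array, and 7 of the 10 markers lay above the array median on all 9 arrays. Cdh1, which encodes E-cadherin, lay between 3.24 and 3.37, and Krt14 and Trp63, markers of the basal layer, lay below the array median on every array.

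No gene of the mitochondrial ribosome passed the test in any comparison. With limma and Benjamini-Hochberg adjustment over all 18194 genes at a threshold of 0.05, the count was 0 of 76 in IR against NIR, where 1.65% of all genes passed. It was likewise 0 of 76 in IR against PA, where 1.06% passed, and in NIR against PA, where 1.3% passed. The F test over the groups called 0 of 76 as well, beside 2.34% of all genes. The smallest adjusted p of a member was 0.0821 in IR against NIR, 0.189 in IR against PA and 0.17 in NIR against PA. With background shares this low, a count of 0 among 76 genes does not set them apart.

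The intervals show how closely the differences between these arrays were measured on the chosen probe sets. As the spread could be technical alone, they do not bound the difference between the conditions. Other probe sets are not covered, such as that of Mrps15 close to the median signal, with -0.36 ± 0.092 (SE) in IR against NIR. The 95% intervals of all 76 genes lay within 0.5 either side of 0 on the log2 scale, a 1.41-fold change, in all 3 comparisons. Over all genes the same held for 16292, 17070 and 16701 of 18194 in IR against NIR, IR against PA and NIR against PA. Within the narrower limit of 0.25 lay the intervals of 36, 32 and 38 members. The median SD within groups was 0.0907 for the members and 0.109 over all genes, and no gene with a difference smaller than 0.301 passed the test in any comparison.

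**Figure D1:**
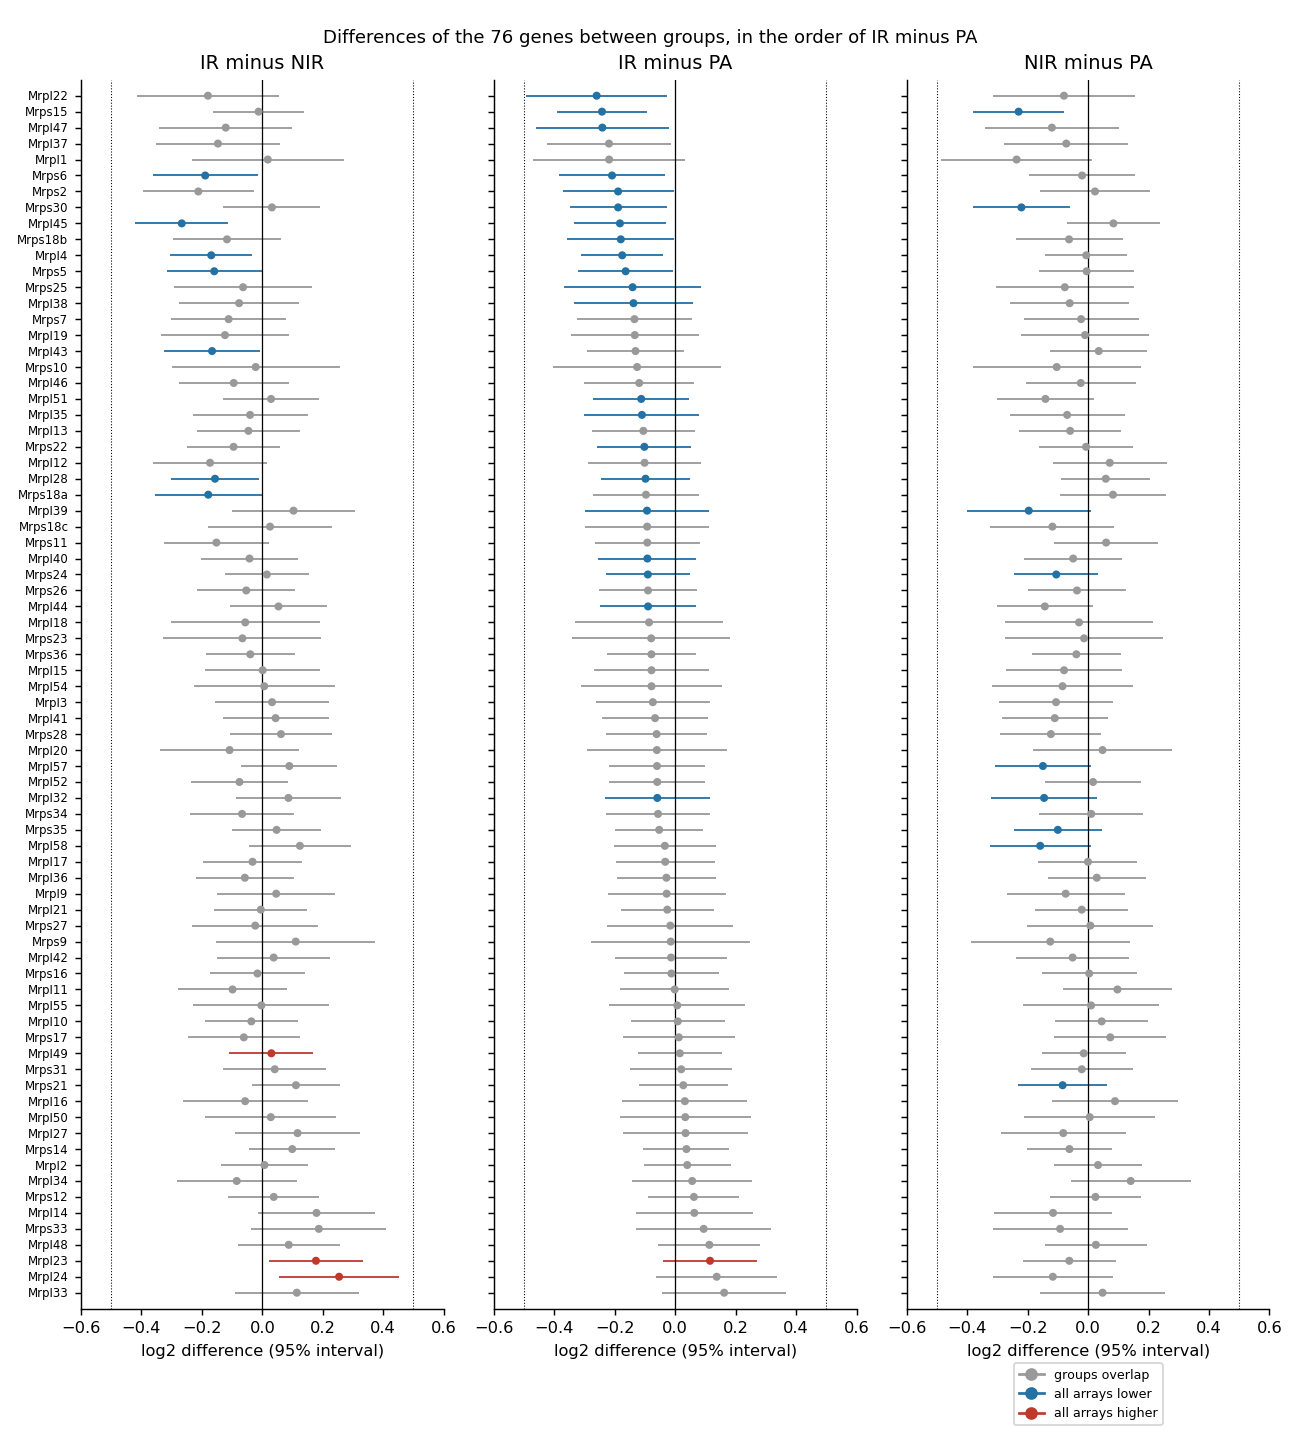
Log2 differences of the 76 genes with 95% intervals (horizontal axis) in the comparisons IR minus NIR, IR minus PA and NIR minus PA, with the genes in the order of IR minus PA; colour marks genes whose 3 arrays in the first group all lay below (blue) or above (red) those of the second, and dotted lines mark 0.5. All intervals stay within the dotted lines, and the 21 blue genes of the middle panel are the ones with every IR array below every PA array.

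Below the threshold, the direction was uneven in IR against PA. The log2 difference was negative for 57 of the 76 genes, against 48.1% of all genes, and its median was -0.076, a signal 5.16% lower, against 0.0043 over all genes. All IR arrays lay below all PA arrays for 21 members and above them for 1 member, Mrpl23. Over all genes these shares were 7.43% and 7.26%. At an unadjusted p below 0.05, 11 members were lower and 0 higher, beside 4.29% and 4.3% of all genes. Among 5171 other genes within the members' range of signal, 14.6% had all IR arrays below all PA arrays, more than over all genes, and 53.9% had a negative difference. No test was made over the list, because its genes share the same 9 arrays.

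In IR against NIR the genes fell on both sides. The difference was negative for 43 of 76, against 49.5% of all genes, with a median of -0.023 against 0.0014. The arrays of the groups were apart with IR lower for 7 members and with IR higher for 3, beside 9.4% and 8.69% of all genes. At an unadjusted p below 0.05 there were 8 lower and 2 higher members, beside 8.08% and 7.8%. The members' shares were thus 9.21% and 3.95% without overlap, and 10.5% and 2.63% at the unadjusted p. On the lower side these were near the shares of all genes, and on the higher side they were below them. Among the other genes within the members' range of signal the shares without overlap were larger, 18.7% lower and 13.8% higher. Of those genes 52.2% had a negative difference.

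In NIR against PA, 52 of 76 differences were negative, against 48.4% of all genes, and the median was -0.038 against 0.0046. NIR lay below PA without overlap for 9 members (11.8%) and above it for 0, beside 7.73% and 7.82% of all genes. Among the other genes within the members' range of signal both shares were 12.7%. An unadjusted p below 0.05 was reached by 2 lower and 0 higher members, beside 6.14% and 5.96%, and the F test reached it for 5 members, beside 15%. The comparisons with PA share the PA arrays, and those of IR share the IR arrays, so their values are not independent of each other.

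**Figure D2:**
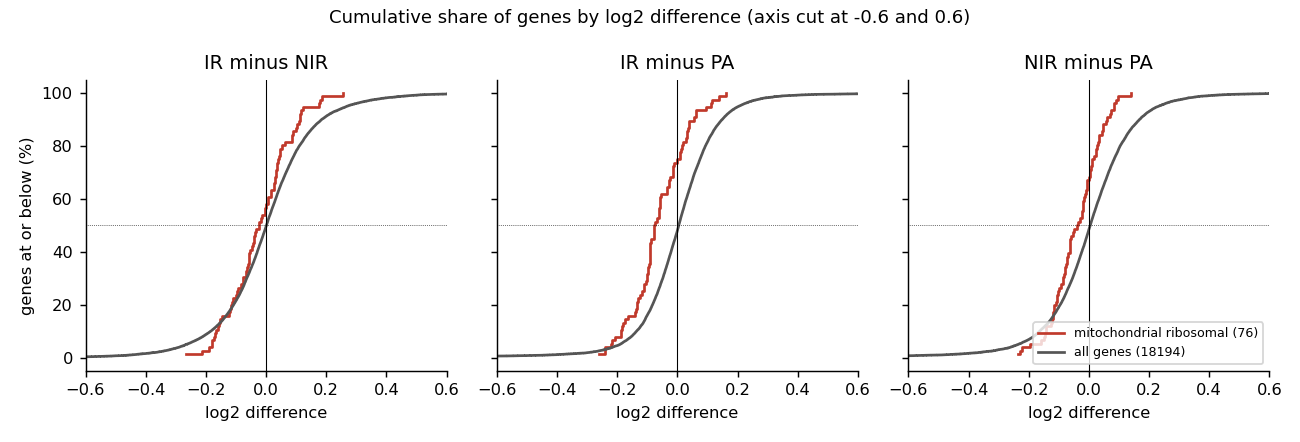
Cumulative share of genes (vertical axis, %) at or below each log2 difference (horizontal axis) for the 76 genes of the mitochondrial ribosome (red) and all 18194 genes tested (grey), in each comparison. The red line lies left of the grey line over most of IR minus PA, where 57 of 76 differences are below 0, and lies near it around 0 in IR minus NIR; it spans a narrower range in every panel.

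The single arrays differed among themselves by as much as the groups did. Averaged over the 76 genes, the signal was 9.51, 9.49 and 9.46 on the IR arrays, 9.58, 9.40 and 9.54 on the NIR arrays, and 9.55, 9.61 and 9.49 on the PA arrays. The group means were 9.49 ± 0.025, 9.51 ± 0.093 and 9.55 ± 0.059 (SD, n = 3 arrays each), and the ranges of the groups overlapped. The genes moved together from array to array. NIR2 was the lowest NIR array for 56 of 76 members (73.7%) and for 40.9% of the other genes in their signal range, and PA2 was the highest PA array for 56 members and for 44.6% of those genes. PA2 was the lowest PA array for 0 members. This movement was not limited to the members. The mean deviation of 25 assembly factors of the mitochondrial ribosome was also lowest on NIR2, at -0.063, and highest on PA2, at 0.106.

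Leaving out single arrays moved these values. Without NIR2 the median of NIR minus PA turned from -0.038 to 0.015, while the count of members with IR below NIR without overlap was 29 in place of 7, beside 14.4% of all genes with the same arrays. Without NIR1 the median of IR minus NIR turned to 0.018. The median of IR minus PA was -0.036 without PA2, which left 47 negative differences and 21 members apart, beside 11.2% of all genes. It was -0.094 without PA3, which left 65 and 36, beside 13.2%, and -0.053 without IR3, which left 55 and 25, beside 13%. For NIR minus PA the 9 members with NIR lower without overlap became 21 without PA3, beside 12.6% of all genes, and 15 both without NIR1 and without NIR3, beside 12.3% and 13.2%. With fewer arrays groups separate more often in all genes, so these counts are read against those shares and not against 7.73%. The count of members passing the test was 0 in each of these fits.

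Measures of RNA quality and the signals of markers of other cell types also differed between arrays. The 3′ minus 5′ difference of the actin control probe sets was 0.321, 0.321 and 0.339 in IR. It was 0.268, 0.388 and 0.372 in NIR, and 0.294, 0.329 and 0.374 in PA. That of Gapdh was -0.146, -0.112 and -0.149 in IR. It was -0.167, -0.072 and -0.066 in NIR, and -0.129, -0.173 and -0.097 in PA. NIR1 and NIR2, with the highest and lowest NIR mean over the members, had the lowest and highest actin value. NIR3 was near NIR2 in both controls and near NIR1 in its members. PA2 had the highest PA mean with the middle actin value and the lowest Gapdh value. In Gapdh the PA arrays stood in the reverse order of their means, and NIR1 was the lowest of NIR. Among the IR arrays, IR3 had both the lowest mean and the lowest Gapdh value. The mean deviation of 10 macrophage markers was 0.49 on IR3, -0.026 and 0.013 on the other IR arrays, from -0.02 to 0.098 on the NIR arrays and from -0.27 to -0.13 on the PA arrays. Of them Cd14, Csf1r, Lyz2 and Mrc1 lay above the array median on every array, and Ptprc, the pan-leukocyte marker, lay between 3.49 and 3.88, below the array median throughout. Mrc1 rose in NIR against PA by 0.75 (limma adjusted p = 0.016), a call lost without NIR1, PA1 or PA3. The mean over 10 fibroblast markers deviated by 0.086 to 0.18 in IR, by -0.12 to 0.26 in NIR and by -0.27 to -0.15 in PA. Of these markers 8, among them Dcn and Lum, lay above the array median on all 9 arrays, those of the cultured PA cells included. Whether such signal came from host cells or from the line itself was not tested. Dcn, which encodes decorin, rose by 1.24 in IR against PA (limma adjusted p = 0.0026), or by 0.6 with the mean of its probe sets. In NIR against PA, Dcn rose by 0.81 and Lum, which encodes lumican, by 1.29 (limma adjusted p = 0.039 and 0.024), calls lost in 7 and 5 of the 9 fits that left out 1 array. The part of host cells and of RNA quality in the differences of the members was not tested, and in such bulk RNA a lower share of cells of a type cannot be told apart from less RNA per cell.

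**Figure D3:**
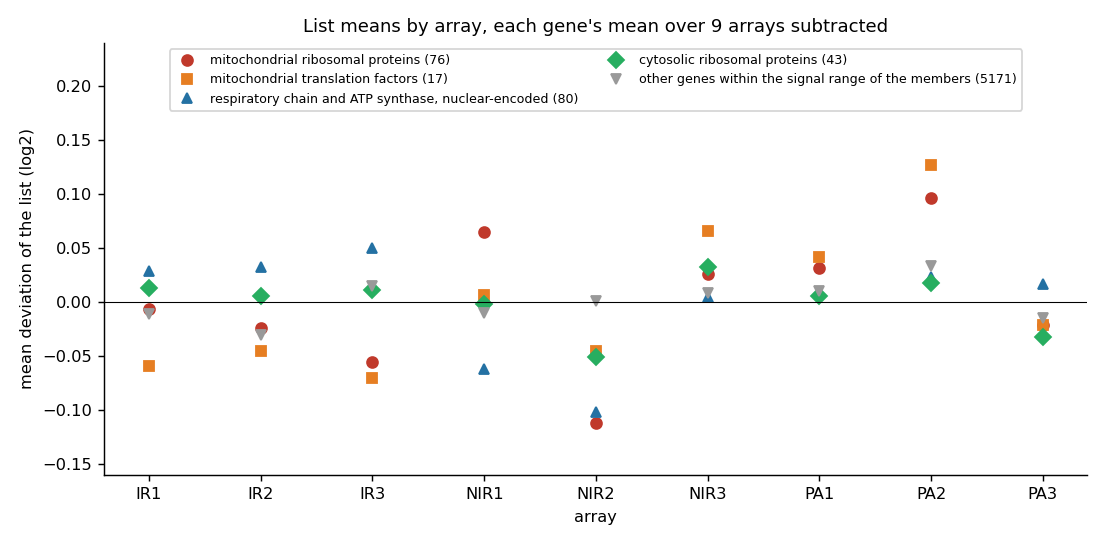
Mean deviation of gene lists on each array (vertical axis, log2, after subtracting each gene's mean over the 9 arrays), with the number of genes in brackets; each point is 1 list on 1 array (horizontal axis). The genes of the mitochondrial ribosome (red circles) are lowest on NIR2 at -0.11 and highest on PA2 at 0.097, a wider range than that of the cytosolic ribosomal proteins (green diamonds). The translation factors stand at 0.127 on PA2 and -0.045 on NIR2, and the respiratory chain genes at 0.023 and -0.102.

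Among small subunit genes, Mrps15 had the lowest p over the 3 groups. It encodes a protein that binds the small subunit RNA and has a bacterial counterpart. Its signal was 9.51, 9.48 and 9.48 on the IR arrays, 9.50, 9.47 and 9.53 on the NIR arrays, and 9.68, 9.84 and 9.68 on the PA arrays. Both derived groups thus lay below PA on every array and overlapped with each other. The difference was -0.24 ± 0.069 (SE) in IR against PA (95% interval -0.39 to -0.092, limma adjusted p = 0.189) and -0.23 ± 0.069 in NIR against PA (-0.38 to -0.08, limma adjusted p = 0.17). Another probe set of nearly the same brightness gave -0.12 in IR against PA and -0.063 in NIR against PA. The remaining probe set, close to the median signal of the arrays, gave -0.35 and 0.0097.

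Mrps6, another protein with a bacterial counterpart, was low only in the IR arrays. Its signal was 10.77, 10.72 and 10.79 in IR, 10.94, 10.82 and 11.08 in NIR, and 10.93, 11.05 and 10.92 in PA. Every IR array lay below every array of the other groups, by 0.19 on average against NIR (limma adjusted p = 0.271), or 0.12 without NIR3, and by 0.21 against PA (limma adjusted p = 0.443). Mrps5, which lies near the path of the messenger RNA, was arranged alike, with 7.65, 7.66 and 7.56 in IR, 7.82, 7.73 and 7.81 in NIR, and 7.85, 7.83 and 7.69 in PA. Its 4 other probe sets, all dimmer, did not share this arrangement, with differences of -0.065 to 0.039 in IR against NIR and -0.096 to 0.01 in IR against PA. Mrps2 was below PA on all IR arrays, while its NIR arrays, at 8.86, 8.61 and 8.83, reached into the IR range. Its difference was -0.21 against NIR (95% interval -0.4 to -0.028) and did not pass the test.

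Over the 16 small subunit genes with a bacterial counterpart the median of IR minus PA was -0.092, with 12 negative. Over the 10 specific to mitochondria it was -0.068, with 8 negative, beside 48.1% of all genes. Mrps33 of the latter class went the other way, with a difference of 0.19 in IR against NIR, or 0.073 without NIR2, and of 0.094 against PA, or 0.034 without IR3. Its NIR arrays spread from 9.00 to 9.41, with NIR2 the lowest, so the groups overlapped. Mrps17 differed by 0.073 in NIR against PA, and by -0.019 without NIR1.

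In the large subunit Mrpl45 gave the smallest adjusted p of all members. Its product lies at the exit of the tunnel through which the new protein leaves, and attaches the ribosome to the inner membrane. The signal was 9.49, 9.49 and 9.38 in IR, 9.71, 9.79 and 9.65 in NIR, and 9.68, 9.63 and 9.59 in PA. IR was the low group, below both others on every array, and NIR and PA overlapped. The difference was -0.27 ± 0.07 in IR against NIR (95% interval -0.42 to -0.11, limma adjusted p = 0.0821) and -0.18 in IR against PA (limma adjusted p = 0.447).

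Mrpl4, whose product helps to line the tunnel, had closely spaced values within each group. They were 8.71, 8.72 and 8.70 in IR, 8.84, 8.86 and 8.93 in NIR, and 8.87, 8.89 and 8.89 in PA. IR was again below both other groups on every array, by 0.17 and 0.18 (limma adjusted p = 0.203 and 0.38). Mrps30, a large subunit protein specific to mitochondria, followed another order, in which both derived groups were low. Its signal was 9.32, 9.33 and 9.30 in IR, 9.38, 9.21 and 9.26 in NIR, and 9.42, 9.59 and 9.50 in PA, and the difference of NIR from PA was -0.22 ± 0.073 (limma adjusted p = 0.229).

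**Figure D4:**
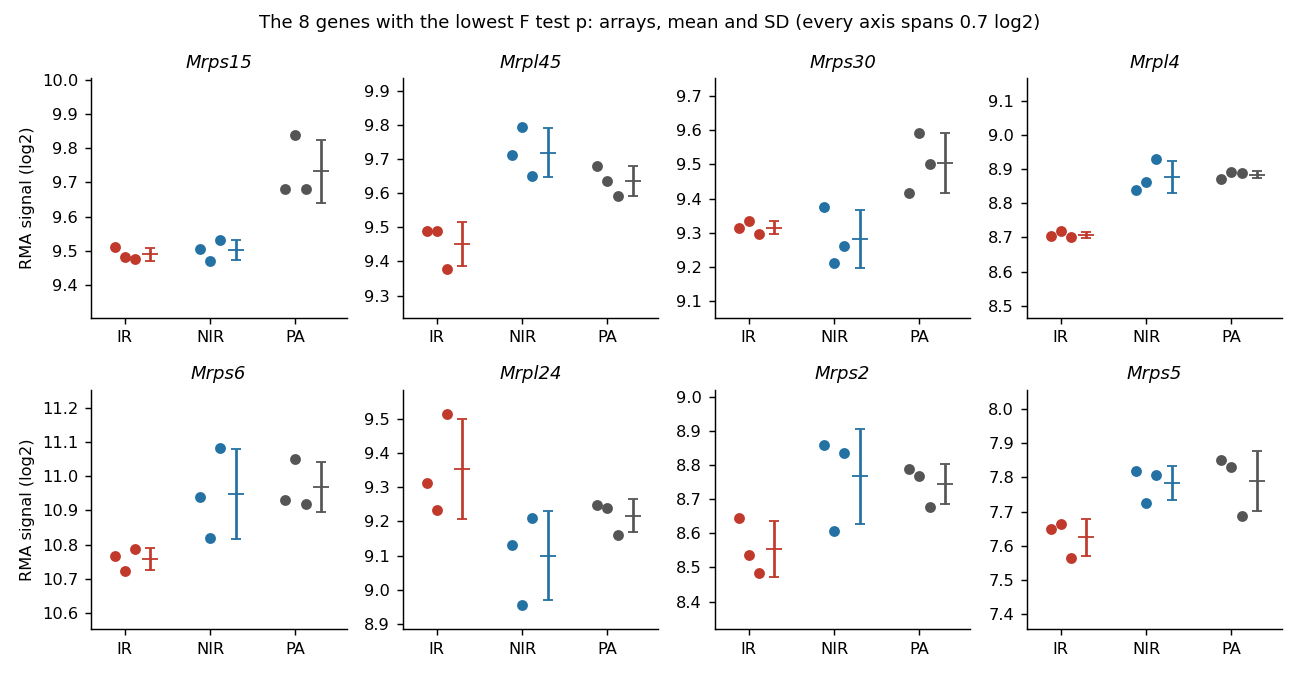
RMA signal (vertical axis, log2) by group for the 8 genes with the lowest F test p; points are arrays, and the bar beside them gives the mean and SD (n = 3), with every axis spanning 0.7. The IR arrays lie below both other groups without overlap for Mrpl45, Mrpl4, Mrps6 and Mrps5, PA lies above both for Mrps15 and Mrps30, and the IR mean is the highest for Mrpl24.

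The most positive difference in IR against NIR was that of Mrpl24. Mrpl24, whose product sits at the tunnel exit, had 9.31, 9.23 and 9.52 in IR, 9.13, 8.96 and 9.21 in NIR, and 9.25, 9.24 and 9.16 in PA. IR lay above NIR without overlap, by 0.25 ± 0.091 (95% interval 0.055 to 0.45, limma adjusted p = 0.192), but overlapped with PA. Mrpl23, its neighbour at the tunnel exit, had 10.23, 10.20 and 10.26 in IR, 9.94, 10.09 and 10.12 in NIR, and 10.07, 10.10 and 10.16 in PA. It was the 1 member with every IR array above every array of both other groups, by 0.18 and 0.12 on average, and it did not pass the test (limma adjusted p = 0.241 and 0.728).

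Mrpl22, another tunnel protein, had the most negative difference in IR against PA, -0.26 ± 0.11 (95% interval -0.49 to -0.026, limma adjusted p = 0.509). It was followed by Mrps15, by Mrpl47 at -0.24, by Mrpl37, which is specific to mitochondria, at -0.22, and by Mrpl1, a protein of a mobile stalk, at -0.22, or -0.13 without PA2. The groups were apart for Mrpl22 and Mrpl47 and overlapped for Mrpl37 and Mrpl1. Other probe sets of Mrpl1 and Mrpl47, all much dimmer, did not give the same values. That of Mrpl1 above the median signal gave 0.083, and those of Mrpl47 -0.018 and -0.004. At the positive end Mrpl33 stood at 0.16 and Mrpl48 at 0.11, or 0.068 without PA3, with overlapping groups.

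In NIR against PA, Mrpl39, Mrpl58 and Mrpl57, all specific to mitochondria, were lower in NIR without overlap, by 0.2, 0.16 and 0.15. Without NIR2 the difference of Mrpl39 was -0.077. Mrpl58 encodes a hydrolase that frees stalled chains and is built into the ribosome. For each of the 3 genes NIR2 was the lowest array of all 9, with 9.88, 9.76 and 10.05. The most positive differences were 0.14 for Mrpl34, 0.097 for Mrpl11, a protein of the stalk base and 0.089 for Mrpl16, all with overlapping groups. Mrpl34 was 0.071 without NIR1, Mrpl11 was 0.056 and Mrpl16 was 0.036 without PA3, and a dimmer probe set of Mrpl11 gave -0.037. Of the remaining leading genes in IR against NIR, Mrps18a was lower in IR without overlap at -0.18, Mrpl12, whose product also binds the mitochondrial RNA polymerase, stood at -0.17, or -0.097 without IR3, Mrpl14 at 0.18, Mrpl58 at 0.12 and Mrpl27, a protein near the catalytic centre, at 0.12. Without NIR2 the last 3 were 0.085, 0.078 and 0.0057.

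By class, the 20 large subunit genes specific to mitochondria had a median of -0.091 in IR against PA, with 17 negative and 7 below PA without overlap. The 29 with a bacterial counterpart had a median of -0.033, with 19 negative and 6 below. Over all genes 48.1% were negative and 7.43% lay below PA without overlap. The latter share was 14.6% among the other genes within the members' range of signal. In IR against NIR the medians were 0.028 and -0.036. These are descriptions, and the difference between the classes was not tested. Mrps36, the gene outside the ribosome, differed by -0.079 from PA and by -0.04 from NIR.

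**Figure D5:**
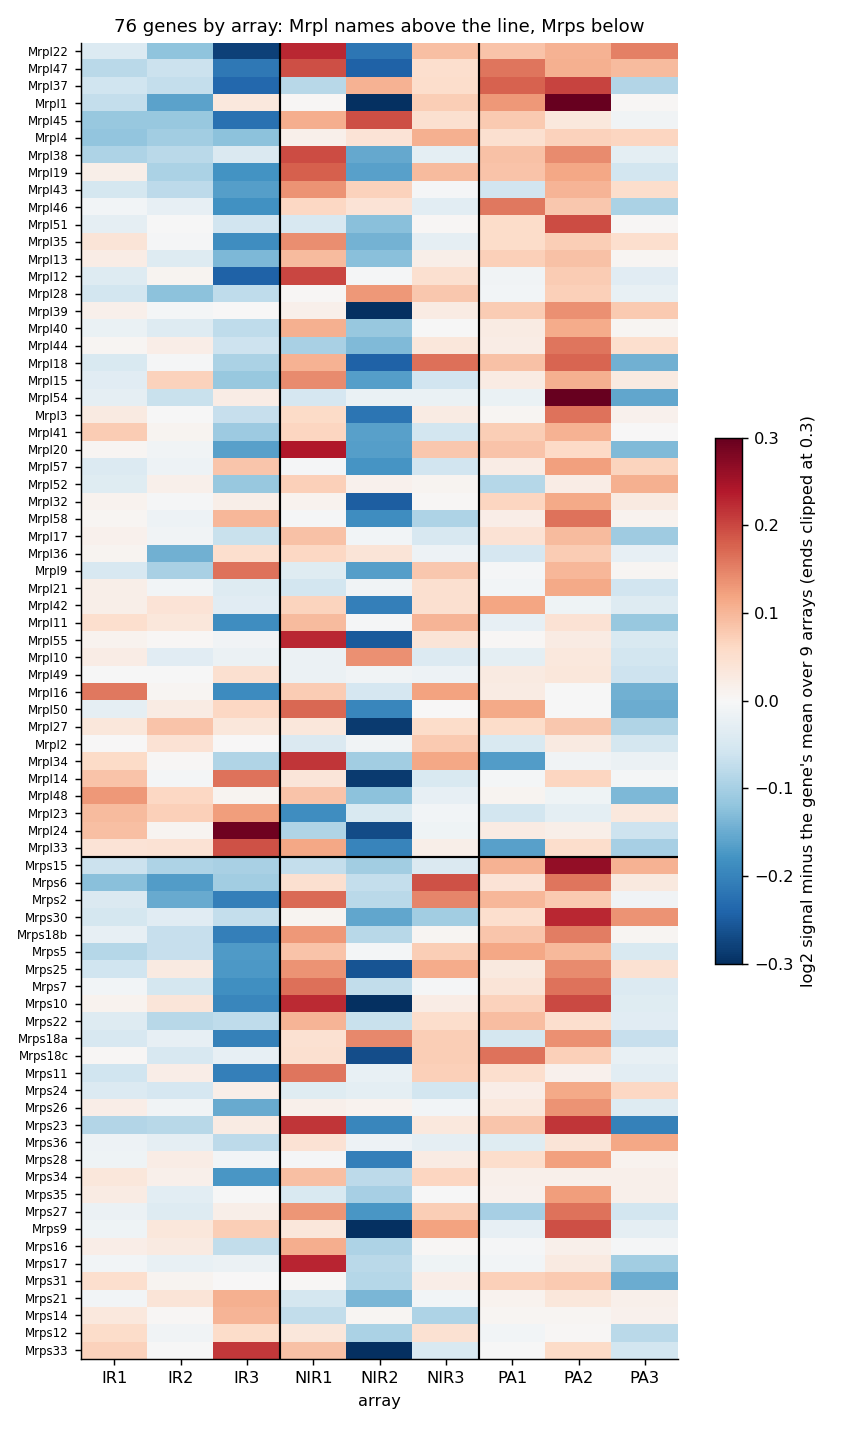
Log2 signal of the 76 genes (rows) on the 9 arrays (columns) minus each gene's mean over the arrays, red for higher and blue for lower, with Mrpl names above the horizontal line and Mrps names below, each ordered by IR minus PA. NIR2 is the bluest NIR column, lowest in its group for 56 of 76 genes, and PA2 the reddest PA column, highest for 56.

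Of the 76 genes, 42 had several probe sets, which gave 80 measurements beside the chosen ones. Of these, 55 had a mean above the median of all values, and 25 did not, so that their sign carries little. The 55 had the sign of the chosen probe set in 37 cases for IR against NIR, 45 for IR against PA and 30 for NIR against PA. None of the 156 probe sets passed when all single-gene probe sets were tested with limma, the smallest adjusted p being 0.0552, 0.179 and 0.209 in the same order.

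Promoter sequence was set beside these values because the transcription factors NRF-1 and GABPA, an ETS family factor, are textbook regulators of nuclear genes for mitochondria, and YY1 binds near the start of many such genes. RefSeq promoter entries on GRCm38.p6, each from 250 bases before to 50 after a gene's start, matched 67 of the 76 genes with 73 promoters. The letters CCGGAAGT of the ETS family, searched on both strands, were in 12 of the 73 (16.4%), in 3.89% of all 32851 promoters and in 5.86% of those of the genes tested. GCATGCGC, for NRF-1, was in 8 (11%), against 2.71% and 4.05%, and AAGATGGCG, for YY1, was in 8 (11%), against 1.4% and 2.1%. At least 1 of them was in 26 (35.6%) of the promoters of members and in 7.57% of all promoters, or 11.3% of those of the genes tested. Only Mrpl33 and Mrps27 held 2 of the motifs, at positions that did not overlap.

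The 3 genes with the lowest F test p and, for each motif, the brightest gene that holds it within the 150 bases before its start are shown to let the promoters be compared. Each line gives those 150 bases 5′ to 3′ on the strand of the gene, from RefSeq on GRCm38.p6, and capitals mark a motif match. The positions are chr4:126046778-126046927 (plus strand) for Mrps15, chr11:97315566-97315715 (plus) for Mrpl45, chr13:118387253-118387402 (minus) for Mrps30, chr6:125192050-125192199 (plus) for Mrpl51, chr7:105811088-105811237 (minus) for Mrpl17 and chr7:78782981-78783130 (plus) for Mrps11.
Mrps15: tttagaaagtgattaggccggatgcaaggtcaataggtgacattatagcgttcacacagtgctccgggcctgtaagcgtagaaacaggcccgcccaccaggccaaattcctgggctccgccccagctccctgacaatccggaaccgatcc
Mrpl45: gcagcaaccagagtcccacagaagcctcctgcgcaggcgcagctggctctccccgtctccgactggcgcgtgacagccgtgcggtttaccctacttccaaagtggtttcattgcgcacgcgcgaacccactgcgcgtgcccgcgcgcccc
Mrps30: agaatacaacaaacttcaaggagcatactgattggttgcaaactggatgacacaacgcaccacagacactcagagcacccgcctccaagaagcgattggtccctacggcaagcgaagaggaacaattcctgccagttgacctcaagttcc
Mrpl51: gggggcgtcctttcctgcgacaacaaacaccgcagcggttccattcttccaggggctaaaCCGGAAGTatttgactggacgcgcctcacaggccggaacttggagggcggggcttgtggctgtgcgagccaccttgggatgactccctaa
Mrpl17: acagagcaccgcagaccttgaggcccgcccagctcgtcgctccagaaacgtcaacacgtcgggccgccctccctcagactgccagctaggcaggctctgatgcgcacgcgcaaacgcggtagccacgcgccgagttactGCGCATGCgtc
Mrps11: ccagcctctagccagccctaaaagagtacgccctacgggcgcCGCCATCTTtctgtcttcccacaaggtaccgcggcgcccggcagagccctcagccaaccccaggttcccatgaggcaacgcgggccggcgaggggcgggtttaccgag

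The first 3 promoters held none of the exact letters searched in this window. Variants of those letters were not searched or counted, among them gcgcacgc beside GCGCATGC, which stands in Mrpl45 and Mrpl17. Genes without a motif are therefore genes without these exact letters. Mrpl51 had the ETS letters at positions -90 to -83 from the start, and Mrpl17 and Mrps11 had the NRF-1 and YY1 letters on the opposite strand, at -11 to -4 and -108 to -100. A match is a run of letters and not a measured binding site. The median of IR minus PA was -0.08 over the 12 genes with the ETS letters, 9 of them negative. It was -0.046 over the 8 with those of NRF-1, 6 of them negative, and -0.092 over the 8 with those of YY1, all 8 negative. Over the 41 genes with a promoter and none of the motifs it was -0.06, with 26 negative, beside 57 of all 76 members. The ranges overlapped throughout. Among genes that encode such regulators, 13 were measured and 0 passed in any comparison. Gabpa differed by 0.31 in IR against NIR and by 0.26 against PA, and Pprc1, a coactivator, by -0.33 in IR against NIR (limma adjusted p = 0.194, 0.538 and 0.139).

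Few other genes of mitochondrial translation passed the test. Proteins of the mitochondrial ribosome with other names, 5 of 6 measured, had 0 calls. Ptcd3, an RNA-binding protein of the small subunit, differed by -0.28 in IR against NIR (limma adjusted p = 0.115), and Gadd45gip1, a large subunit protein, by -0.23 in IR against PA (limma adjusted p = 0.33). Of the translation factors, 17 of 19 were measured and 0 passed, with 14 of 17 negative both in IR against NIR and in IR against PA. The factor with the most negative value was Mtrf1l, a release factor, at -0.44 in IR against PA (limma adjusted p = 0.353), and the elongation factor Gfm1 stood at -0.26 in IR against NIR.

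Among 25 assembly factors of the mitochondrial ribosome 1 passed. Mettl15, which methylates the small subunit RNA, rose in IR against NIR by 0.58 (limma adjusted p = 0.032). The call was lost in 7 of the 9 fits without 1 array, and the difference was 0.056 without probe sets that may bind several transcripts. Of 20 genes that maintain mitochondrial DNA and RNA, Mterf1a, a transcription termination factor, rose in IR against NIR by 0.43 (limma adjusted p = 0.045), a call lost in 8 of 9 such fits (adjusted p up to 0.139). In the other comparisons 0 genes of these lists passed, and the same was true of 22 of 24 measured import genes in all 3 comparisons, where Timm23, a channel of the inner membrane, stood at -0.3 in IR against NIR and -0.21 in IR against PA.

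The ribosome of the cytosol, and the respiratory chain that mitochondrial and nuclear genes build together, were set beside these genes. The 43 cytosolic ribosomal proteins had 0 calls and medians of 0.0089, 0.0072 and 0.00035 in IR against NIR, IR against PA and NIR against PA. The 80 nuclear genes of the respiratory chain and ATP synthase had a median of 0.082 in IR against NIR, with 14 negative, 0.013 in IR against PA and -0.059 in NIR against PA. Ndufb3 rose in IR against NIR by 0.35 (limma adjusted p = 0.037) and Ndufa13 fell in NIR against PA by 0.39 (limma adjusted p = 0.047), both subunits of the first complex of the chain. These calls were lost in 9 and 7 of the 9 fits without 1 array, with an adjusted p of up to 0.103 and 0.186.

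The protein ND5, a first-complex subunit made on the mitochondrial ribosome, was not measured. Its messenger RNA, copied from mitochondrial DNA, had a probe set. Its signal was 12.2, 12.1 and 12.2 in IR, 11.9, 11.9 and 11.7 in NIR, and 12.1, 10.9 and 11.7 in PA. IR was above both other groups on every array, and PA2, the array with the highest mean over the ribosomal genes, was far below the rest. The difference was 0.62 ± 0.22 in IR against PA (limma adjusted p = 0.367) and 0.32 in IR against NIR (limma adjusted p = 0.533), and neither passed the test. Without PA2 the difference from PA was 0.29.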

How the data were processed

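RNA from 9 samples was labelled with biotin and hybridised to Affymetrix mouse arrays, per the labels' protocols. The deposited values are log2 signals made with RMA, per the submitters' processing notes, and its version and settings are not given in the sources used here. Of 45100 probe sets, 34944 had 1 annotated gene, 932 had several, 9160 had none and 64 were controls. Symbols were updated by Entrez identifier against a RefSeq table, which matched 34740 single-gene probe sets. The precision is limited by the number of arrays.

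A single probe set per gene, the one with the highest mean, entered a limma fit of 18194 genes (limma 3.58.1, R 4.3.3). The model was a mean for each group, fitted with lmFit on all 9 arrays without covariates and followed by eBayes. Tests were 2-sided, with Benjamini-Hochberg adjustment over all genes. Intervals use 11.48 total degrees of freedom. The fit was checked on simulated data. Deviations are from a gene's mean over the arrays.

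The members, lists and rules were chosen with earlier results of these data known. The lists of cytosolic ribosomal proteins and of the respiratory chain, taken by symbol, and the counts of groups without overlap and of negative differences in IR against PA were chosen after seeing the data. Genes given with values are the 6 largest differences of each sign in each comparison, the dimmest and brightest 3, called genes of other lists or at most 2 others, and promoters by the F test. Mrpl4, Mrps5, Mrps36, Mrpl23 and Mrpl45 against PA, ND5 and the markers quoted were named after their values were seen. Alternatives were a filter on dim genes, averaging the probe sets of a gene, every other probe set, leaving out probe sets that may bind several transcripts, centring on the array median, quantile normalization of the deposited values, trend and robust options of eBayes, a fit of only the groups compared, a block for the replicate number, and leaving out each array. Figures used matplotlib 3.10.9 (Python 3.11.15).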

Additional observations from a re-analysis of the deposited data

How the results depend on the processing

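The count of genes of the mitochondrial ribosome passing the test was 0 under every alternative run, where the smallest adjusted p was 0.0616 in IR against NIR, 0.0777 in IR against PA, 0.131 in NIR against PA and 0.0907 for the F test. Counts over all genes moved more. With the compared groups alone 11 genes passed in IR against NIR. Leaving out 1 array gave 77 to 271 genes in IR against NIR, 99 to 214 in IR against PA and 121 to 370 in NIR against PA, against 300, 192 and 236 with all arrays. With a replicate block the counts were 230, 164 and 203 and 0 members passed; correlations of same-numbered arrays ran from -0.201 to 0.0974, so the numbers were not taken to pair samples.

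Members with IR below PA without overlap numbered 21 to 36 when 1 array was left out, beside 7.43% to 13.2% of all genes. They numbered 16 under median centring (8.48% of all genes) and 19 with a second quantile normalization (7.99%) or the mean of probe sets (7.46%). Without probe sets that may bind several transcripts they were 14 of the 62 members left (6.75%). Without those probe sets Mrpl1 turned to 0.083 in IR against PA and 0.27 in NIR against PA, and Mrpl58 to 0.057 in NIR against PA. Other probe sets gave these same values, and also 0.11 for Mrpl1 and -0.038 for Mrpl33 in IR against PA, and 0.0097 for Mrps15 and -0.037 for Mrpl11 in NIR against PA. The probe sets behind the values of Mrpl58 and Mrpl33, and behind 0.11 for Mrpl1, lay below the median signal. Mrps17 in NIR against PA ran from -0.019 without NIR1 to 0.136 without NIR2. The cause of these changes was not tested.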
